A study of Caenorhabditis elegans with 4 samples.

Results

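Neuropeptide and insulin-like peptide genes were examined in dissected adult gonads of *C. elegans*. They were taken by name, as the rows of the deposited count table whose gene symbol starts with *flp-*, *nlp-* or *ins-*. The table held 47 such genes among 15286, namely 15 *flp*, 21 *nlp* and 11 *ins* genes. The current annotation gives 140 symbols of these kinds, 31 *flp*, 71 *nlp* and 38 *ins*. Of the others, 12 are listed in the table under sequence names and are described apart, and the rest were not analysed here. The genes lie on every chromosome, with 11 on I, 6 on II, 7 on III, 7 on IV, 8 on V and 8 on X.

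The mutant group was strain FAS58, which carries *his-72(uge40[K27M]) III*, a histone H3.3 gene with lysine 27 changed to methionine, and is called H3.3K27M here. The wild-type group was N2. Both were grown at 25 °C and gave 2 biological replicates each. The titles of the mutant libraries carry another strain number, FAS43, and the extraction text of the labels describes embryos and larvae at a lower temperature, whereas the sample source and the methods give isolated adult gonads. The number of gonads pooled per library is not given in the sources used here.

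Neuropeptides are short signalling peptides cut from larger precursors, packed into dense-core vesicles and released mostly from neurons, where they act on G protein-coupled receptors. The *flp* genes encode FMRFamide-like peptides, and the *nlp* genes encode a mixed group of other neuropeptide-like proteins, some of which are antimicrobial peptides of the epidermis. The *ins* genes encode insulin-like peptides, which act through the receptor DAF-2 on growth, dauer entry, lifespan and germ line proliferation. A dissected gonad consists of germ cells and of somatic sheath and distal tip cells. Most of these peptides are made elsewhere in the worm, so that their counts in each library also show how much RNA from other tissues it may hold. In bulk RNA, fewer cells of a type and less RNA per cell cannot be told apart.

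Total counts were 32957429 and 28298609 in H3.3K27M replicates 1 and 2, against 31865876 and 29331804 in wild-type replicates 1 and 2, and all pairs of values below follow this replicate order. Counts of the replicates varied well beyond sampling noise (chi-square over degrees of freedom 90.1 in H3.3K27M and 100.2 in wild type). H3.3K27M replicate 1 stood apart by its empty genes: 2145 of the 15261 tested genes had no count in it and 708 in H3.3K27M replicate 2, against 535 and 630 in wild type. *his-72* itself had 1644 and 1917 counts in H3.3K27M, against 1881 and 2346 in wild type (log2 fold change −0.40, adjusted p = 0.281). The change is a point mutation, so this level does not check the labels.

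The peptide genes were weakly represented in all 4 libraries. Their counts summed to 820 and 1814 in H3.3K27M, against 914 and 725 in wild type, which was 0.00249% and 0.00641% of all counts in H3.3K27M and 0.00287% and 0.00247% in wild type. After TMM scaling the sums were 25.1 and 57.1 CPM (counts scaled to library size) in H3.3K27M, against 31.2 and 25.3 CPM in wild type. The sums of the 2 strains overlapped, and H3.3K27M replicate 2 was the only library clearly above the others. The median member had 0.33 CPM in H3.3K27M and 0.21 CPM in wild type, where the median of all tested genes was 2.64 CPM in H3.3K27M and 1.95 CPM in wild type. Per kilobase of exon, the median member had 0.55 CPM in H3.3K27M and 0.31 CPM in wild type, against 2.04 and 1.56 CPM per kilobase for the median of all tested genes in H3.3K27M and wild type.

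**Figure D1:**
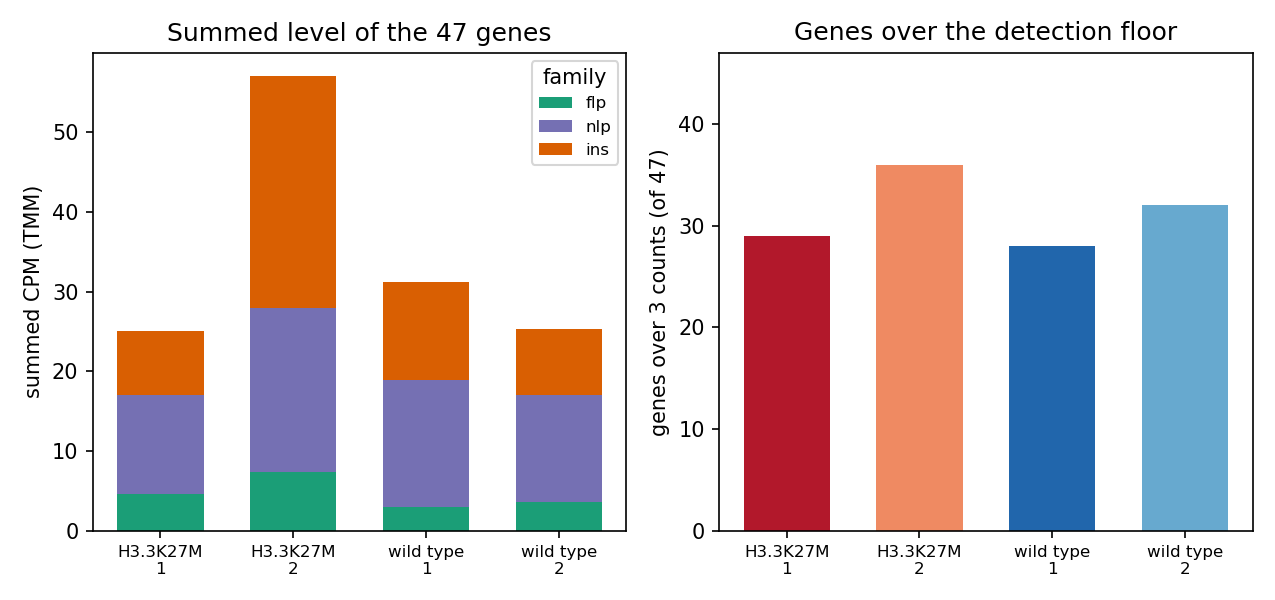
Left, summed CPM of the *flp*, *nlp* and *ins* genes in each library as stacked bars; right, the number of the 47 genes with more than 3 counts in each library. The sum was 57.1 CPM in H3.3K27M replicate 2 and between 25.1 and 31.2 CPM in the other libraries.

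Most members lay near the limit of detection. A count of 3 was taken as the floor, which corresponds to 0.092 to 0.10 CPM depending on the library and covers counting error only. Of the 47 genes, 18 and 11 were at or under the floor in H3.3K27M, against 19 and 15 in wild type. Only 13 genes were over the floor in all 4 libraries, and *nlp-17*, *nlp-28* and *nlp-30* were over it in none. At least 10 counts in 2 or more libraries were found for 24 genes, and 5 genes reached 100 counts in any library.

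**Figure D2:**
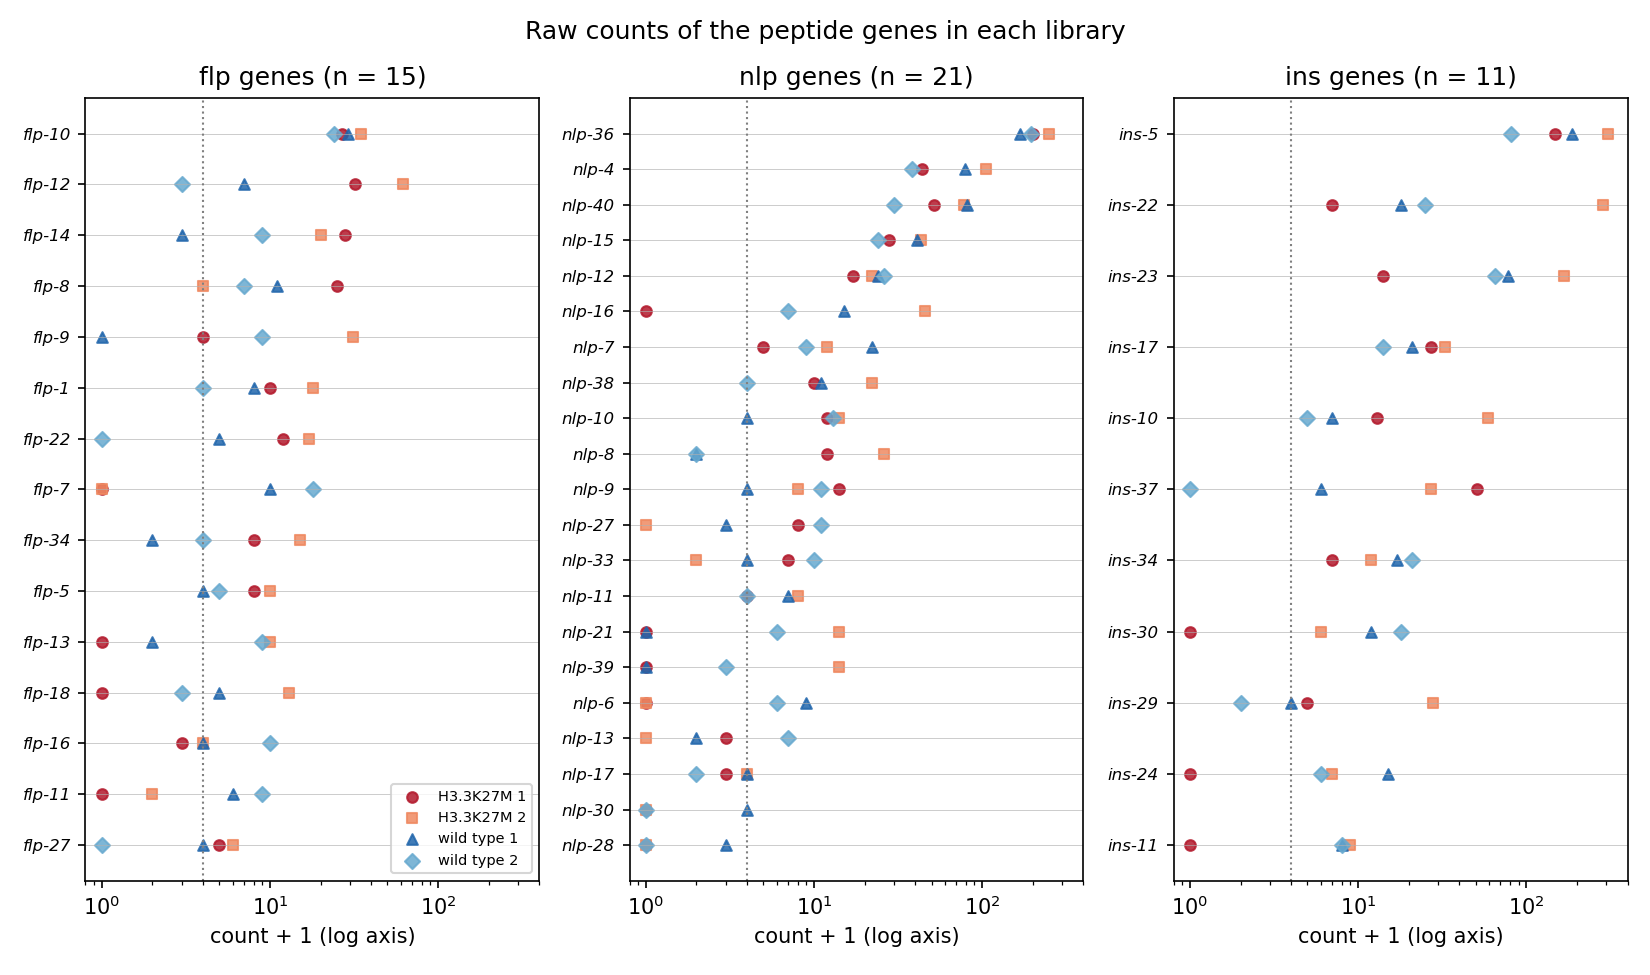
Raw count plus 1 of each of the 47 genes on a log axis, by family and ordered by mean CPM, with circles and squares for the H3.3K27M libraries and triangles and diamonds for the wild-type libraries. The dotted line marks the floor of 3 counts, and 13 genes lie to its right in all 4 libraries.

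H3.3K27M replicate 2 held more of these transcripts than H3.3K27M replicate 1. In CPM, 36 of the 47 genes (76.6%) were higher in replicate 2 than in replicate 1, compared with 55.7% of all tested genes. Between the wild-type replicates, 22 of 47 (46.8%) were higher in replicate 2, compared with 53.3% of all tested genes. Of the 13 members without a count in H3.3K27M replicate 1, 8 were over the floor in H3.3K27M replicate 2. A pair of neighbouring insulin genes, *ins-22* and *ins-23*, described below, differed strongly between the H3.3K27M replicates. Without them the sums were 24.5 and 43.0 CPM in H3.3K27M, against 27.99 and 22.2 CPM in wild type.

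**Figure D3:**
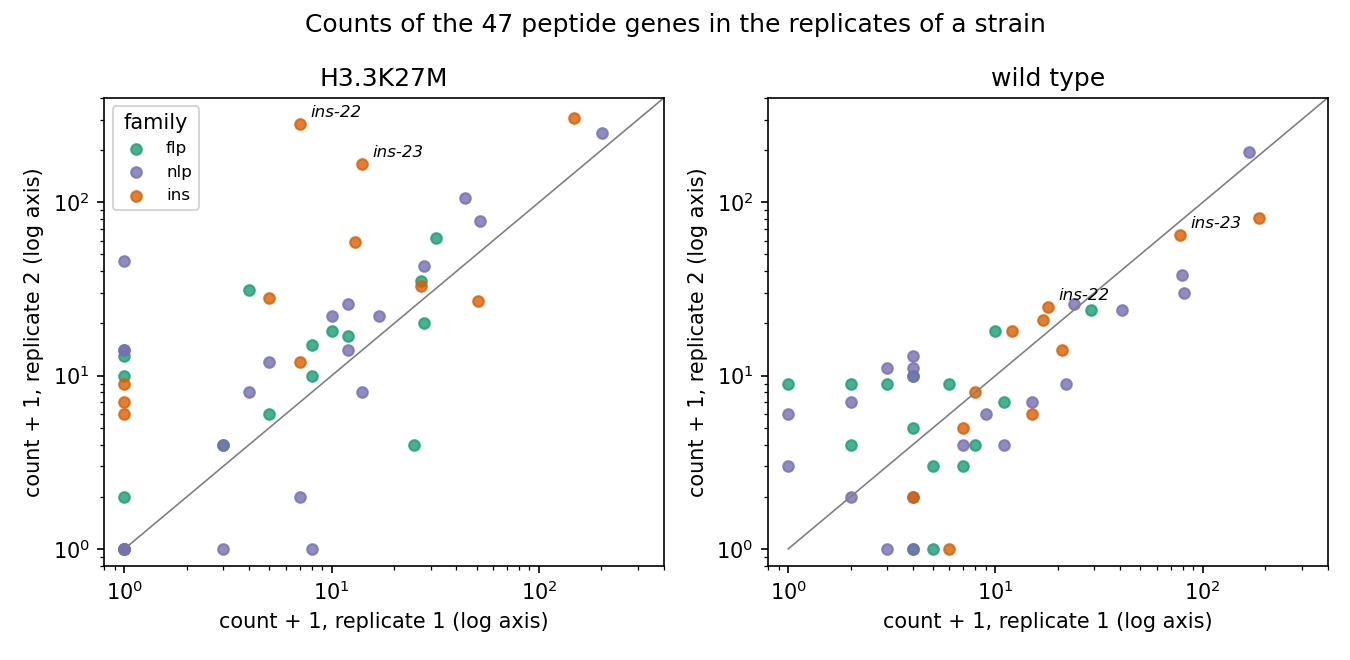
Count plus 1 of the 47 genes in replicate 2 against replicate 1 of each strain, on log axes with the line of equality, H3.3K27M on the left and wild type on the right. In H3.3K27M, *ins-22* had 6 and 284 counts and lay far above the line, and 36 of 47 genes were higher in replicate 2 after scaling.

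No peptide gene was called changed in the comparison of the strains. The call rule asked for a p under 0.05 after Benjamini-Hochberg adjustment over all 15261 genes, together with more than a 2-fold difference, in edgeR's quasi-likelihood test. It called 4.43% of all tested genes higher and 1.46% lower in H3.3K27M. Among the 47 members 0 were called higher and 0 lower. At an unadjusted p under 0.05, 3 members were higher (*flp-12*, *ins-37* and *nlp-8*) and 3 lower (*flp-7*, *nlp-6* and *flp-11*), or 6.38% in each direction, against 12.3% of all tested genes higher and 12.4% lower. DESeq2 called 1 member higher, *flp-12* (adjusted p = 0.033), and gave no adjusted p for 26 of the 47. The classic exact test of edgeR also called *flp-12* higher (adjusted p = 0.040) and *flp-7* lower (adjusted p = 0.039).

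The levels of 12 members (25.5%) were higher in both H3.3K27M libraries than in both wild-type libraries, against 24.1% of all tested genes, so their share was near the background. The levels of 7 members (14.9%) were lower in both H3.3K27M libraries, against 32.7% of all tested genes. The median log2 fold change was 0.22 over the 47 genes and −0.11 over all tested genes, and 30 of the 47 (63.8%) had a value above 0, against 44.0% of all tested genes. With 2 genes set at their bound and 3 that are at the floor in both strains left out, the members' median was 0.49. The same treatment gave −0.10 over all tested genes. Of the 3 members left out, *nlp-28* and *nlp-30* had fitted values of −3.24 and −3.77. The members' fitted median of 0.22 rested on single libraries. It was −0.39 without H3.3K27M replicate 2, 0.71 without H3.3K27M replicate 1, 0.85 without wild-type replicate 1 and 0.30 without wild-type replicate 2. In the same order, the medians over all tested genes in these fits were −0.19, −0.07, −0.05 and −0.06. Markers of neurons are given below.

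Among the FMRFamide-like peptide genes, 7 of 15 (46.7%) were higher in both H3.3K27M libraries than in both wild-type ones, and 3 (20%) were lower. The shares over all tested genes were 24.1% higher and 32.7% lower. The median log2 fold change of the family was 1.02. Their summed level was 4.62 and 7.34 CPM in H3.3K27M, against 2.94 and 3.52 CPM in wild type, so that the strains did not overlap. Among the *flp* genes with at least 10 counts in 2 or more libraries, the largest difference was in *flp-12* (X:4591281-4592350, WBcel235). It had 31 and 61 counts in H3.3K27M, against 6 and 2 in wild type, and so met that minimum through H3.3K27M alone. Both H3.3K27M libraries were above both wild-type libraries, and the fold change was 3.34 on the log2 scale (SE 0.96, adjusted p = 0.0954). It lay between 2.75 and 4.32 with any single library left out.

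*flp-14* (III:12910510-12914783) had 27 and 19 counts in H3.3K27M, against 2 and 8 in wild type (log2 fold change 2.02, SE 0.95, adjusted p = 0.236). *flp-10*, whose peptide was described as an inhibitor of egg laying, had 26 and 34 counts in H3.3K27M, against 28 and 23 in wild type, and its libraries overlapped. *flp-8* had 24 and 3 counts in H3.3K27M, against 10 and 6 in wild type. The H3.3K27M replicates of *flp-8* lay on either side of both wild-type libraries. The remaining *flp* genes stayed at 30 counts or fewer in every library.

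In the other direction, *flp-7* (X:5885865-5886833), which encodes tachykinin-like peptides that act on fat loss, had 0 and 0 counts in H3.3K27M, against 9 and 17 in wild type. Set against the floor of 3 counts per library, it was at least 4.83-fold lower in H3.3K27M (adjusted p = 0.137). *flp-11*, which encodes the sleep-promoting peptides of the RIS neuron, had 0 and 1 counts in H3.3K27M, against 5 and 8 in wild type. The ratio of its pooled levels was 0.069, with a 95% counting interval of 0.0016 to 0.46 (adjusted p = 0.195). Both genes were low in each H3.3K27M library, yet neither exceeded 17 counts in any library. *flp-11* lies antisense to *tmem-135*, which had 0 and 4 counts in H3.3K27M, against 7 and 18 in wild type. The library kit was stranded, but the strand setting of the counting is not given in the sources used here, so reads of such overlapping genes may not be separated, which touches 9 of the 47 members.

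The *nlp* genes had the smallest median log2 fold change of the 3 families, 0.08, or 0.13 with bounds. Of the 21 genes, 1 (4.76%) was higher and 2 (9.52%) were lower in both H3.3K27M libraries, against 24.1% and 32.7% of all tested genes. The family summed to 12.4 and 20.6 CPM in H3.3K27M, against 15.9 and 13.6 CPM in wild type. *nlp-36* (III:9488731-9489186) was its most abundant gene, with 200 and 250 counts in H3.3K27M, against 166 and 194 in wild type (log2 fold change 0.17, SE 0.30, adjusted p = 0.750). Its level per kilobase was 19.9 CPM in H3.3K27M and 17.6 CPM in wild type, the highest of all 47 genes. It lies antisense to *dars-1*, an aspartyl-tRNA synthetase gene, which had 9379 and 7677 counts in H3.3K27M, against 6251 and 6521 in wild type. How many *nlp-36* reads belong to *dars-1* was not tested.

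*nlp-4* had 43 and 105 counts in H3.3K27M, against 78 and 37 in wild type, and the strains overlapped. *nlp-40*, which encodes a peptide that the intestine releases to time defecation, had 51 and 77 counts in H3.3K27M, against 80 and 29 in wild type. Summed intestine markers were 13.3 and 19.4 CPM in H3.3K27M, against 277.0 and 2796 CPM in wild type. Most of the sums in wild type came from *vit-2*, *vit-5* and *vit-6*. They had 82.4, 69.8 and 118.5 CPM in wild-type replicate 1 and 772.7, 797.9 and 1194 CPM in wild-type replicate 2. Of the 12 intestine markers, 9 were lower in both H3.3K27M libraries and 2, *ges-1* and *elt-2*, were higher. Over all tested genes, 32.7% were lower and 24.1% higher in this way. Wild-type replicate 2 had the lowest *nlp-40* count. Whether *nlp-40* reads came from the intestine was not tested. *nlp-15* had 27 and 42 counts in H3.3K27M, against 40 and 23 in wild type. *nlp-40* and *nlp-15* thus differed more between replicates than between strains.

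*nlp-12*, the gene of cholecystokinin-like peptides that modulate locomotion, had 16 and 21 counts in H3.3K27M, against 23 and 25 in wild type (log2 fold change −0.52, SE 0.71, adjusted p = 0.671). *nlp-7* had 4 and 11 counts in H3.3K27M, against 21 and 8 in wild type (log2 fold change −1.09, SE 0.97, adjusted p = 0.513). *nlp-8*, made in the ALA neuron among others, had 11 and 25 counts in H3.3K27M, against 1 and 1 in wild type. It was the only *nlp* gene higher in both H3.3K27M libraries, with a pooled ratio of 16.2 and a 95% counting interval of 4.17 to 138.9 (adjusted p = 0.143). *nlp-6* (X:17662446-17665216) had 0 and 0 counts in H3.3K27M, against 8 and 5 in wild type, which is at least 2.40-fold lower (adjusted p = 0.143). *nlp-16* showed the unevenness of the H3.3K27M replicates, with 0 and 45 counts in H3.3K27M, against 14 and 6 in wild type.

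The epidermal antimicrobial genes of the *nlp-29* type were almost undetected. Of 11 listed genes 4 were tested, and none was over the floor in more than 2 libraries. *nlp-27* had 7 and 0 counts in H3.3K27M, against 2 and 10 in wild type, and *nlp-33* had 6 and 1 counts in H3.3K27M, against 3 and 9 in wild type. *nlp-28* and *nlp-30* did not exceed 3 counts anywhere.

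The *ins* genes had the highest median level of the 3 families, 1.46 CPM per kilobase in H3.3K27M and 0.72 in wild type. Of the 11 genes, 4 (36.4%) were higher and 2 (18.2%) lower in both H3.3K27M libraries, against 24.1% and 32.7% of all tested genes. The median log2 fold change was 0.62. They summed to 8.09 and 29.2 CPM in H3.3K27M, against 12.3 and 8.19 CPM in wild type. *ins-5* (II:5997557-5999023) was the most abundant, with 147 and 304 counts in H3.3K27M, against 185 and 80 in wild type (log2 fold change 0.62, SE 0.53, adjusted p = 0.494). Its strains overlapped.

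*ins-22*, whose tagged product is widely used to follow dense-core vesicles in neurons, had 6 and 284 counts in H3.3K27M, against 17 and 24 in wild type. Its fitted log2 fold change of 2.67 (SE 1.45, adjusted p = 0.303) came from H3.3K27M replicate 2 and was −1.92 without that library. *ins-23*, which lies 1560 bases away on chromosome III, showed the same order within the mutant, with 13 and 166 counts in H3.3K27M, against 77 and 64 in wild type. The fit gave 0.20 on the log2 scale, and −2.60 without H3.3K27M replicate 2. For both genes, 1 H3.3K27M replicate was above and the other below both wild-type libraries.

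*ins-37* (II:13835101-13836107) had 50 and 26 counts in H3.3K27M, against 5 and 0 in wild type. Both H3.3K27M libraries were well above wild type, and the log2 fold change was 3.71 (SE 1.20, adjusted p = 0.121). *ins-10* had 12 and 58 counts in H3.3K27M, against 6 and 4 in wild type (log2 fold change 2.63, SE 1.15, adjusted p = 0.210), and it lies antisense to *vps-39*, a gene with 8651 and 8058 counts in H3.3K27M, against 6045 and 6229 in wild type. *ins-17* had 26 and 32 counts in H3.3K27M, against 20 and 13 in wild type. *ins-30* had 0 and 5 counts in H3.3K27M, against 11 and 17 in wild type (log2 fold change −2.58, SE 1.29, adjusted p = 0.253). *ins-34* had 6 and 11 counts in H3.3K27M, against 16 and 20 in wild type (log2 fold change −1.22, SE 0.84, adjusted p = 0.399). These last 2 genes were the *ins* members lower in both H3.3K27M libraries, and *ins-34* lies antisense to the abundant *nkcc-1*.

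Genes that act on the receiving side of insulin signalling were tested beside the ligands. *daf-2*, the receptor gene, had 5536 and 6362 counts in H3.3K27M, against 7643 and 5982 in wild type (log2 fold change −0.34, SE 0.20, adjusted p = 0.330). The 10 genes of the insulin pathway summed to 1773 and 1582 CPM in H3.3K27M, against 1530 and 1583 CPM in wild type. None of the 10 was called in either direction by edgeR's quasi-likelihood test, 0 had an unadjusted p under 0.05, and their median log2 fold change was 0.07. The insulin-like gene *daf-28*, which the naming rule does not take, was not analysed here.

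The 8 X-linked members had a median log2 fold change of −0.25, against 0.22 for the 39 autosomal members. The median was −1.06 over all 1979 X-linked genes tested and −0.05 over all autosomal genes. The 3 members with an unadjusted p under 0.05 and lower in H3.3K27M, *flp-7*, *flp-11* and *nlp-6*, are all X-linked, as is *flp-12*, which was higher. The difference between X-linked and autosomal members was not tested.

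Genes for making and releasing peptides were tested for the same strains. The list of precursor cleavage, amidation and dense-core vesicle genes had 18 tested genes, of which 1 was called higher and 1 lower, 9 had an unadjusted p under 0.05 and were higher and 1 was lower. The called shares were 5.56% in each direction, against 4.43% of all tested genes higher and 1.46% lower. At an unadjusted p under 0.05 the shares were 50% higher and 5.56% lower, against 12.3% and 12.4% of all tested genes. The median log2 fold change was 0.78, and 15 of the 18 were above 0. *pghm-1*, which encodes the hydroxylating enzyme of peptide amidation, had 100 and 203 counts in H3.3K27M, against 8 and 11 in wild type (log2 fold change 3.83, SE 0.74, adjusted p = 0.0355). It rose in H3.3K27M by the call rule. *hid-1*, needed for dense-core vesicle formation and X-linked, fell: it had 44 and 66 counts in H3.3K27M, against 248 and 209 in wild type (log2 fold change −2.20, SE 0.38, adjusted p = 0.0272).

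*egl-3*, the proprotein convertase that cuts most neuropeptide precursors, had 106 and 249 counts in H3.3K27M, against 36 and 29 in wild type (log2 fold change 2.30, SE 0.62, adjusted p = 0.0964). *unc-31*, the gene of the vesicle priming protein CAPS, had 1174 and 757 counts in H3.3K27M, against 223 and 45 in wild type (log2 fold change 2.70, SE 0.59, adjusted p = 0.0525). Neither passed the threshold, although both H3.3K27M libraries were above both wild-type libraries. *egl-21*, the carboxypeptidase that trims the cut peptides, had 109 and 122 counts in H3.3K27M, against 80 and 53 in wild type (log2 fold change 0.65, adjusted p = 0.385).

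Among 76 peptide receptor genes, 5 were called higher and 0 lower by edgeR's quasi-likelihood test, with 14 higher and 10 lower at an unadjusted p under 0.05. The calls made up 6.58% of the list, against 4.43% of all tested genes called higher. At an unadjusted p under 0.05 the shares were 18.4% higher and 13.2% lower, against 12.3% and 12.4% of all tested genes, so the lower share in particular was near the background. The median log2 fold change was 0.10 over the list, −1.48 over its 21 X-linked genes and 0.68 over the rest. *dmsr-5* had 199 and 215 counts in H3.3K27M, against 4 and 2 in wild type (log2 fold change 5.90, adjusted p = 0.00306). *npr-22* had 82 and 38 counts in H3.3K27M, against 1 and 2 in wild type (log2 fold change 5.06, adjusted p = 0.0423). Both were at or near the floor in wild type only.

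*npr-34* had 88 and 115 counts in H3.3K27M, against 5 and 6 in wild type (log2 fold change 4.03, adjusted p = 0.0222). *nmur-4*, of the neuromedin U receptor family, had 197 and 148 counts in H3.3K27M, against 17 and 9 in wild type (log2 fold change 3.57, adjusted p = 0.0205). *pdfr-1*, the receptor of pigment dispersing factor peptides, had 174 and 147 counts in H3.3K27M, against 17 and 12 in wild type (log2 fold change 3.31, adjusted p = 0.0219). Its ligand gene *pdf-1*, which falls outside the naming rule, had 80 and 214 counts in H3.3K27M, against 37 and 49 in wild type (log2 fold change 1.62, adjusted p = 0.187). The receptor gene thus passed the threshold and the ligand gene did not, and whether their changes differ was not tested. With any single library left out, far fewer of all tested genes were called, so such fits cannot show whether the processing and receptor calls hold. A lone library is assumed there to vary like those of the other strain.

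**Figure D4:**
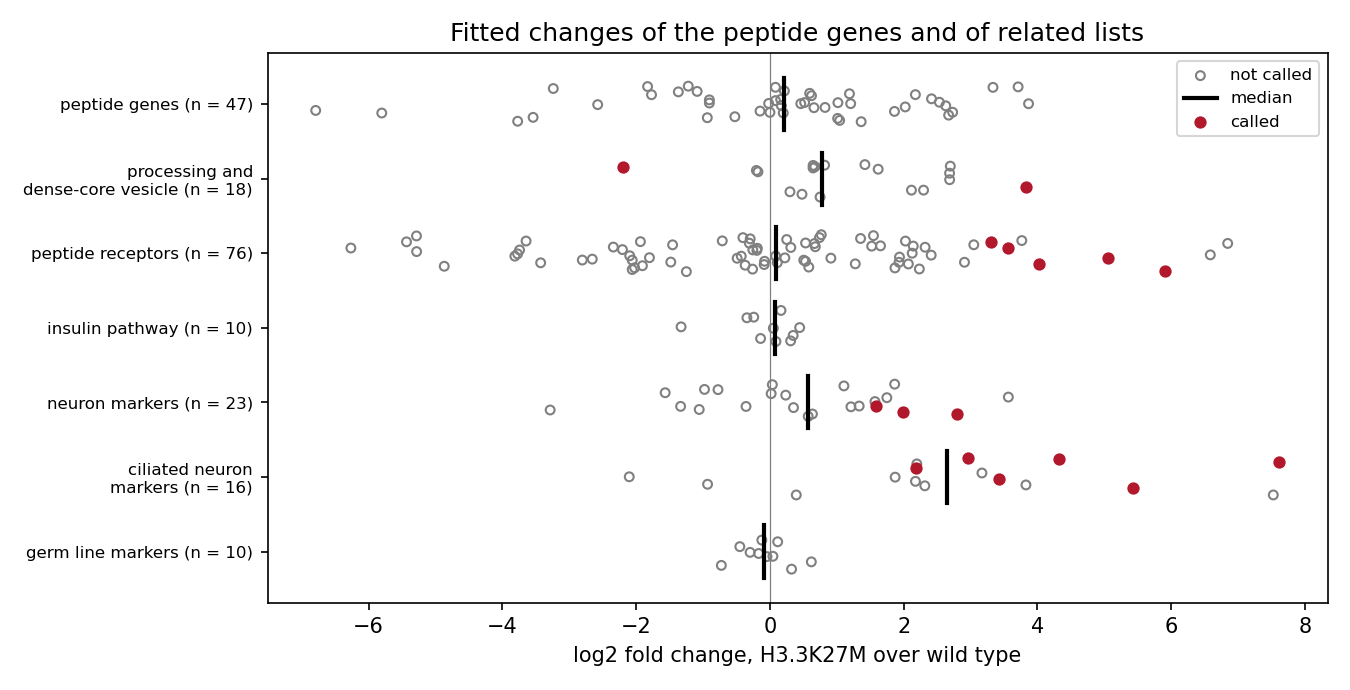
Fitted log2 fold change of each gene, H3.3K27M over wild type, for the peptide genes and 6 related lists, with the median as a bar and called genes filled. No peptide gene is filled, while 2 of 18 processing genes and 5 of 76 receptor genes are.

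Markers of neurons were read in each library beside the peptide genes. Of 23 general neuronal markers 3 (13%) were called higher and 0 lower, against 4.43% and 1.46% of all tested genes. The 23 markers summed to 512.9 and 473.5 CPM in H3.3K27M, against 372.8 and 430.3 CPM in wild type. *tdc-1*, which gonadal sheath cells also express, and *snb-1* made up most of this. Without these genes the sums were 85.4 and 99.7 CPM in H3.3K27M, against 48.8 and 43.3 CPM in wild type, and the strains did not overlap. The called markers were *ric-19*, *unc-104* and *unc-13*, genes of vesicle maturation, axonal transport and vesicle priming. They made up most of the trimmed sums in H3.3K27M, with 26.2 and 35.2, 22.5 and 21.8, and 17.15 and 15.1 CPM. In wild type they had 7.30 and 8.16, 9.59 and 5.12, and 2.97 and 1.67 CPM. The gap between the strains in the trimmed sums therefore does not describe the remaining markers. Of the 23, 7 were higher in both H3.3K27M libraries than in both wild-type libraries and 6 were lower. Over all tested genes, 24.1% were higher and 32.7% lower in this way. Among the lower markers, *unc-18* had 95 and 161 counts in H3.3K27M, against 342 and 342 in wild type, and was not called (adjusted p = 0.052). *unc-13* had 560 and 480 counts in H3.3K27M, against 87 and 48 in wild type. Of the 23 markers, 6 and 0 were at 0 in H3.3K27M, against 2 and 0 in wild type.

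Genes of ciliated sensory neurons showed a wider difference, with 6 of 16 (37.5%) called higher, against 4.43% of all tested genes. Their summed levels were 389.6 and 611.6 CPM in H3.3K27M, against 110.2 and 91.3 CPM in wild type. The list also holds *daf-10*, which was not called and lies antisense to the peptide gene *flp-1*, with 101 and 342 counts in H3.3K27M, against 26 and 2 in wild type. *flp-1* had 9 and 17 counts in H3.3K27M, against 7 and 3 in wild type. Glial markers summed to 25.0 and 37.1 CPM in H3.3K27M, against 5.02 and 5.30 CPM in wild type. Of the 3 markers 1 (33.3%), *ptr-10*, was called higher, and it made up most of the H3.3K27M sums. *ptr-10* had 784 and 997 counts in H3.3K27M, against 49 and 25 in wild type. *fig-1* was lower in both H3.3K27M libraries, with 0 and 39 counts, against 66 and 63 in wild type. The libraries of *kcc-3* overlapped, with 32 and 142 counts in H3.3K27M, against 32 and 64 in wild type. Sperm markers summed to 95.3 and 156.6 CPM in H3.3K27M, against 29.1 and 10.8 CPM in wild type, with 1 of 7 (14.3%) called higher. Of the 8 somatic gonad markers 1 (12.5%) was called lower, and of the 12 intestine markers 3 (25%) were, against 1.46% of all tested genes. Hypodermis markers summed to 8.70 and 9.32 CPM in H3.3K27M, against 5.22 and 7.56 CPM in wild type. Most of the H3.3K27M sums came from *col-19*, with 6.28 and 0 CPM, and *sqt-3*, with 0.61 and 5.86 CPM. *bli-2*, *elt-3* and *rol-6* were lower in both H3.3K27M libraries, and *col-12* and *sqt-3* were higher. Of the 7 markers 0 were called, and 1 (14.3%) was higher at an unadjusted p under 0.05, against 12.3% of all tested genes.

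Germ line markers, which define the labelled tissue, summed to 19970 and 15130 CPM in H3.3K27M, against 24380 and 20820 CPM in wild type. None of the 10 was called by edgeR's quasi-likelihood test. At an unadjusted p under 0.05, 1 (10%) was higher, against 12.3% of all tested genes. With single libraries left out, far fewer of all tested genes were called, so these fits cannot show whether the neuronal and ciliary calls hold. The median log2 fold change was 0.57 over the neuronal markers, 2.64 over the ciliary, 2.28 over the sperm and 0.71 over the glial ones. It was 0.11 over body wall muscle, −0.08 over germ line and −0.37 over somatic gonad markers. For hypodermis it was −1.06 and for intestine −3.87 with bounds. Within the neuronal list it was −1.31 over the 4 X-linked markers and 0.64 over the rest. The peptide genes had 0.22, or 0.49 with bounds. The value of 0.22 turned to −0.39 without H3.3K27M replicate 2, where all tested genes had −0.19. The part of RNA from other tissues in the peptide gene values was not tested.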

How the data were processed

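The 4 libraries were made from polyadenylated RNA with a stranded kit and read at 50 bases. Per the labels and methods, the authors mapped reads to WBcel235 with TopHat 2.0.13. The submitters' processing notes also name HTSeq 0.6.1 and edgeR 3.10.5. The authors deposited raw counts per gene, whole numbers without normalization, which were used here. The same table holds normalized counts and the authors' own fold changes, average levels and p-values, which were not used. All rows named a gene, and every column of counts was matched to a library.

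The members and gene lists were chosen with earlier results of these data known. Counts of the 15261 genes with at least 1 count received TMM factors, and the model, which held strain alone, was fitted by glmQLFit and tested by glmQLFTest of edgeR 4.0.16 (R 4.3.3). Standard errors are the absolute log2 fold change over the square root of F. Positions came from Ensembl release 115 of WBcel235. Pooled ratios carry 95% exact counting intervals (scipy 1.17.1).

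Named members were any called, the 4 with the highest mean CPM in each family, and in each direction the 5 with the largest change among those with at least 10 counts in 2 libraries; other genes were *his-72*, called genes of the pathway lists, *egl-3*, *egl-21*, *unc-31*, *daf-2*, *daf-28* and *pdf-1*. *flp-7*, *flp-11*, *nlp-6*, *nlp-16*, *flp-1*, the genes of the epidermal list and antisense partners were named after their values were seen, as were the marker genes, *nlp-48*, *nlp-56* and *nlp-81*. The minimum of 10 counts in 2 libraries was met through H3.3K27M alone by *flp-12*, *flp-14*, *flp-22*, *ins-37*, *nlp-8* and *ins-10*, and through wild type alone by *ins-30*. With 2 replicates per strain, p-values rest on the spread between few libraries. Alternatives were RLE scaling, DESeq2 1.42.0, the classic exact test, filterByExpr, the legacy quasi-likelihood method, a replicate block, a crossed block, the adjusted p alone, and leaving out each library.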

Additional observations from a re-analysis of the deposited data

How the results depend on the processing

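The count of peptide genes called higher was 0 and became 1 with DESeq2 and 1 with the classic exact test, both for *flp-12*. The count called lower was 0 and became 1 with the classic exact test, for *flp-7*. Both counts were 0 with RLE scaling, filterByExpr (22 members tested), the legacy method, the adjusted p alone and each library left out, where the calls over all genes fell to 0 higher and 0 lower without H3.3K27M replicate 1 or wild-type replicate 2. A lone library left in a strain is assumed to vary like those of the other strain. Same-numbered libraries share only a number (correlation of deviations −0.121 over 9237 genes), and the replicate block gave 0 and 0 members called, with 372 higher and 91 lower over all genes, against 676 and 223 without it. The crossed pairing, added after seeing the data, gave 0 and 0, with 640 and 216 over all genes. The median log2 fold change was 0.50 with filterByExpr, which tests fewer genes, and ranged from −0.39 to 0.85 with single libraries left out.

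Of 238 settings for 22 named genes, 219 kept direction and side of the threshold, 3 passed it and 16 turned the direction, in 9 genes. With single libraries left out, the log2 fold change ranged from −0.14 to 0.33 for *flp-10*, −1.46 to 1.40 for *flp-8*, −1.92 to 3.71 for *ins-22*, −2.60 to 1.16 for *ins-23*, −0.017 to 1.37 for *ins-5*, −0.39 to 0.45 for *nlp-15*, −0.021 to 0.39 for *nlp-36*, −0.59 to 0.87 for *nlp-4* and −0.46 to 1.01 for *nlp-40*. The replicate block gave −0.17 for *ins-23*. *nlp-15* was 0.013 with RLE scaling and 0.017 with DESeq2. The cause of these turns was not tested. Of the 47 members, 24 had at least 10 counts in 2 or more libraries.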

Other observations

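A further 12 genes are listed under sequence names in the deposited table and carry *nlp* names in the current annotation, so the naming rule does not take them. None of the 12 was called by edgeR's quasi-likelihood test, and 0 had an unadjusted p under 0.05. Their median log2 fold change was −0.36. The most abundant, *nlp-81*, had 30 and 60 counts in H3.3K27M, against 24 and 21 in wild type. *nlp-56* had 12 and 4 counts in H3.3K27M, against 18 and 20 in wild type. Of the 12, 2 (16.7%), *nlp-48* and *nlp-81*, were higher in both H3.3K27M libraries than in both wild-type libraries, against 24.1% of all tested genes, and 1 (8.33%), *nlp-56*, was lower in both, against 32.7%.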
